A study of Mus musculus with 12 samples.

Results

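The genes described here encode the translation factors that bring the initiator tRNA to the ribosome, recycle its carrier and join the ribosomal subunits. They are the 10 genes Eif2s1, Eif2s2, Eif2b1, Eif2b2, Eif2b3, Eif2b4, Eif2b5, Eif2a, Eif5 and Eif5b, taken by symbol from a table of 20504 genes that holds the reads counted on the coding sequence (CDS) of each gene. The rule lists these symbols and uses no measured value, but the list was chosen with earlier results of these data known. All 10 are in the table and all passed the count threshold of every comparison.

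The libraries came from brain tissue of 6 Camk2a-RiboTag mice, all 3 months old, in which a Camk2a promoter drives Cre recombinase in principal excitatory neurons of the forebrain and Cre switches on a hemagglutinin (HA) tag on the ribosomal protein Rpl22. Mice A and B are the controls, labelled untreated and described in the study's methods as gavaged with vehicle, and mice C and D received a single oral dose of 100 mg/kg AZD-8055, an ATP-competitive mTOR inhibitor, 1 h before tissue was taken. Each of these 4 mice gave a ribosome profiling library, which sequences the mRNA fragments protected by ribosomes (footprints), and a poly(A) RNA-Seq library. Both came from homogenate of the right frontal lobe, cleared by centrifugation and not sorted by cell type. Mice E and F, labelled untreated, each gave RNA-Seq of homogenate (input) and of polysomes immunoprecipitated through the HA tag (IP), which come from the cells where Cre acted. Every mouse carries both alleles, every group has 2 mice, and the drug arms consist of different animals.

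Translation of most mRNAs begins when eIF2, a trimer loaded with GTP, carries the initiator methionyl-tRNA to the small ribosomal subunit. eIF5 triggers hydrolysis of that GTP, eIF5B joins the large subunit, and the decameric exchange factor eIF2B reloads eIF2. Stress kinases phosphorylate the alpha subunit of eIF2, which turns it into an inhibitor of eIF2B. In brain these factors are known for synaptic plasticity and, for eIF2B, for the leukodystrophy vanishing white matter disease.

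The mRNAs of many ribosomal proteins start with a C followed by pyrimidines, the terminal oligopyrimidine (TOP) motif through which mTOR controls their translation. RefSeq start sites on GRCm38.p6 were therefore read, and 4 of them are shown, from 10 bases before the annotated start to 15 bases from it on, and a C followed by at least 4 pyrimidines (C or T) and lying within 5 bases of the start is in capitals. Each line gives the transcribed strand 5′ to 3′.
Eif2a, chr3:58525811-58525835, plus strand: gactccgcccgctccggagagggag
Eif2s2, chr2:154892892-154892916, minus strand: aaggttggctttactgtacgcctgc
Eif2b2, chr12:85219471-85219495, plus strand: ccgagcggaagttgaCCTCTCTCgg
Eif2b5, chr16:20498807-20498831, plus strand: ctctttCTCTCCCTgcaactacacc
Such a run was found in 2 of the 9 members with an entry, Eif2b2 and Eif2b5, against 46% of 63 ribosomal protein genes and 21.9% of the 15153 genes of the CDS table with an entry. Only the strand of the gene was searched, and a match describes these letters, not a working motif. All bases shown before the capitals of Eif2b5 are C or T too, so its run begins before the stretch searched. The start site of Eif2b5 also lies inside the gene span given below. The Eif2a window, shown because Eif2a was the member whose translation efficiency fell, holds no such run, nor does that of Eif2s2. Since the search found a run in only 46% of the ribosomal protein genes, its absence does not show that an mRNA lacks a TOP motif.

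Libraries held between 3503873 counts on CDS (footprints of mouse C) and 15585831 (input of mouse F), and among the footprints mouse A had the deepest library with 9259938. Members held 235 to 2033 counts per RNA-Seq library, 107 to 1361 per footprint library, 195 to 3957 per input and 319 to 3137 per IP. Counts below are divided by DESeq2 size factors, separately for the 8 libraries of mice A to D and the 4 of mice E and F. They are not corrected for gene length, so levels are compared between libraries for 1 gene and not between genes. The treatment was seen in the ribosomal protein genes, 73 of whose 78 tested members had lower translation efficiency in the AZD-8055 mice. The summed count of 3 choroid plexus markers reached 7085 in the RNA-Seq of one vehicle mouse against 173 in the other. Results on the drug are therefore also given without each vehicle mouse where the call changed, and the part of this difference in them was not tested.

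In the frontal lobe of vehicle mice the 10 members differed in translation efficiency. Translation efficiency (TE) is the footprint count over the RNA-Seq count of the same gene in the same mouse, so the length of the CDS cancels. On the log2 scale the members' mean TE spanned 1.05 for Eif2s1 to −1.11 for Eif2b5, a 4.46-fold range, while the SD between the 2 mice was at most 0.24. The median of the members was −0.039, near the 0.016 of all 10882 genes with a TE. Their SD of 0.62 across genes was smaller than the 0.99 of all these genes. By the quasi-likelihood test of edgeR on footprints against RNA-Seq, with Benjamini-Hochberg adjustment, which measures each gene against the average gene, 3 members lay higher, where 35.8% of the 10531 genes tested did, and 5 lay lower, where 38.3% did. A 2-fold limit left 1 member on the higher side (Eif2s1), where 11.7% of genes passed it, and 1 on the lower (Eif2b5), where 15.8% did. These shares are near the background.

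The plot of TE in each mouse sets the members against the spread of all genes.

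**Figure D1:**
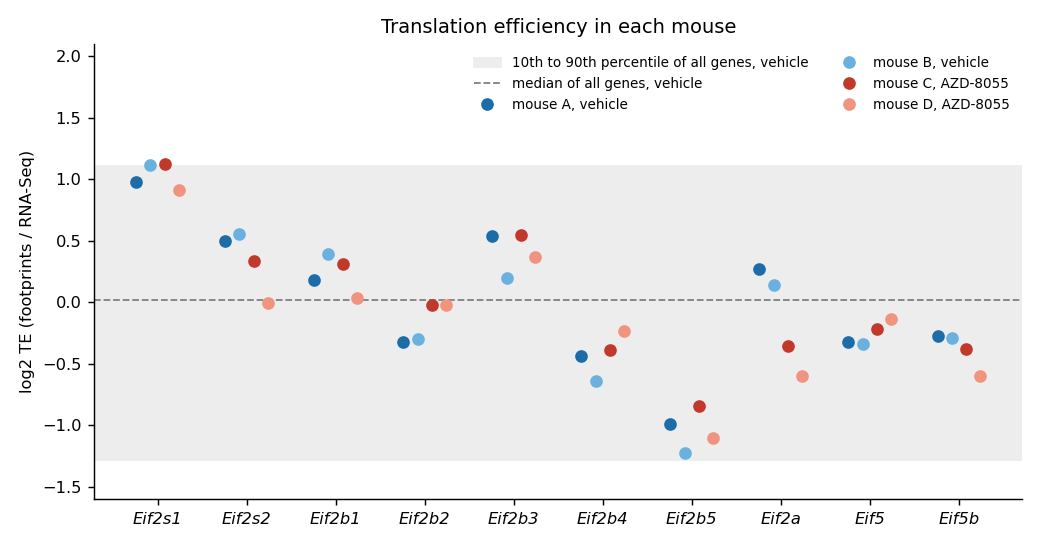
Log2 TE (footprints over RNA-Seq, size-factor normalized) of each gene, with 1 point per mouse (blue, vehicle mice A and B, red, AZD-8055 mice C and D). The grey band runs from the 10th to the 90th percentile of all genes in vehicle mice (−1.29 to 1.11) and the dashed line is their median. The drug mice lie apart from the vehicle mice most clearly for Eif2a, and Eif2s1 and Eif2b5 mark the ends of the range.

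The alpha and beta subunits of eIF2 had a TE above that of the average gene. Eif2s1 (chr12:78862072-78887010), the alpha subunit of eIF2 that carries the regulatory phosphorylation site, had log2 TEs of 0.98 and 1.12 in mice A and B. Its mean of 1.05 ± 0.10 (SD, n = 2) was above that of 88.8% of genes, and the fitted ratio of 2.01-fold passed (edgeR, log2 1.00, SE 0.090, adjusted p = 6.0e-08). Eif2s2 (chr2:154871410-154892906), the beta subunit, which binds eIF5 and eIF2B, gave 0.50 and 0.55 and also passed (edgeR, log2 0.48, SE 0.079, adjusted p = 4.36e-05). The mice of these subunits did not overlap, Eif2s1 being the higher in both. The gamma subunit, which binds GTP and the tRNA, is encoded by the near-identical genes Eif2s3x and Eif2s3y, which are not among the 10 and are named here after their values were seen. Their fitted log2 TEs had opposite signs, 0.95 for Eif2s3x (edgeR, SE 0.091, adjusted p = 1.22e-07) and −1.12 for Eif2s3y (edgeR, SE 0.22, adjusted p = 0.000257). Reads of near-identical copies can be split between them. In the libraries of mice E and F, all RNA-Seq, Eif2s3y held 0 to 2 counts where Eif2s3x held 543 to 2036. Whether the shorter footprints were split was not tested.

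The subunits of eIF2B, one protein complex, lay on both sides of the average gene. Eif2b3 (chr4:117019399-117086852), the gamma subunit of the catalytic pair, had log2 TEs of 0.54 and 0.19 and passed as higher (edgeR, log2 0.37, SE 0.14, adjusted p = 0.0235). This call rested on mouse A, since without it the log2 value was 0.16 with an adjusted p of 0.506, and it was also lost with library totals (adjusted p = 0.0553) and with DESeq2 (0.0675). Eif2b1 (chr5:124570214-124579131), the alpha subunit, gave 0.18 and 0.39 and did not pass (edgeR, log2 0.23, SE 0.13, adjusted p = 0.117). The remaining 3 subunits were lower than the average gene. Eif2b2 (chr12:85219481-85226628), the beta subunit, had −0.32 and −0.30 (edgeR, log2 −0.36, SE 0.10, adjusted p = 0.00461). Without mouse A its value hardly moved, at −0.34, but its adjusted p was 0.0875. Eif2b4 (chr5:31187558-31193139), the delta subunit, had −0.44 and −0.64 (edgeR, log2 −0.57, SE 0.098, adjusted p = 7.88e-05). Alpha, beta and delta form the regulatory core that senses phosphorylated eIF2.

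Eif2b5 (chr16:20498795-20509325), the epsilon subunit that holds the exchange activity, was the member with the lowest TE. Its normalized RNA-Seq counts were 706 and 695 in mice A and B and its footprints 356 and 297. The log2 TEs were −0.99 and −1.23, a mean of −1.11 ± 0.17 (SD, n = 2) below which lay 13.2% of all genes (edgeR, log2 −1.13, SE 0.089, adjusted p = 1.27e-08). Its mice did not overlap those of any other member. In both vehicle mice the TEs of Eif2b3 and Eif2b1 stood above the median of all genes, and those of Eif2b2, Eif2b4 and Eif2b5 below it.

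Eif2a (chr3:58525821-58557501) encodes a single-chain factor that can bring initiator tRNA to the ribosome and is no part of eIF2. Its symbol is also an older synonym of Eif2s1, but both have rows of their own. Its log2 TEs of 0.27 and 0.14 were close to the average (edgeR, log2 0.17, SE 0.089, adjusted p = 0.096). Both factors of the late steps were below average by about the same amount. Eif5 (chr12:111538101-111546753), which activates the GTPase of eIF2, had −0.32 and −0.34 (edgeR, log2 −0.37, SE 0.075, adjusted p = 0.000353). Eif5b (chr1:37998010-38055579), the GTPase of subunit joining, had −0.27 and −0.29 (edgeR, log2 −0.32, SE 0.073, adjusted p = 0.00096). In the order of mean TE, Eif2s2, Eif2b3, Eif2b1 and Eif2a overlapped with their neighbours between the 2 mice and the other neighbours did not. The means of Eif5b, Eif2b2 and Eif5 nevertheless differed by 0.031 and 0.019 from one to the next, less than the fitted SE of each gene. Where gene spans overlap (Eif2a with Serp1, Eif5b with Rev1 and Gm34448, Eif5 with the hosted Snora28, Eif2b3 with the pseudogene Gm22335), the strand setting of the counting is not given in the sources used here, and reads from such stretches cannot be told apart.

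Among 26 other genes of the pathway, 8 of 23 tested had a higher and 10 a lower TE than the average gene. The 3 with the smallest adjusted p were Impact, an inhibitor of the eIF2 kinase Gcn2 (edgeR, log2 2.30, adjusted p = 2.98e-13), Atf4, the transcription factor behind upstream open reading frames (edgeR, log2 −2.94, adjusted p = 4.67e-13), and Eif1ax, a scanning factor (edgeR, log2 1.71, adjusted p = 1.01e-10). Their span was wider than that of the members, but they were picked from 23 genes by their small adjusted p.

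The RNA of the members was next compared between AZD-8055 and vehicle mice, which asks whether their mRNA amounts moved within 1 h of mTOR inhibition. In the quasi-likelihood test of edgeR, Benjamini-Hochberg adjusted, none of the 10 passed, where 0.0575% of 12182 genes were higher and 0.0903% lower. At an unadjusted p under 0.05 there was 1 member, Eif2s1, where 8.24% of genes fell under it, and DESeq2 called none. In tissue homogenate, fewer cells of a type and less RNA per cell cannot be told apart.

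Eif2s1 had 417 and 353 normalized RNA-Seq counts in vehicle mice A and B and 328 and 326 in AZD-8055 mice C and D. Both drug mice were below both vehicle mice, and the fitted change was −0.25 on the log2 scale (95% interval −0.46 to −0.047, adjusted p = 0.490). Eif2a went the other way, with 469 and 438 counts against 492 and 512, a change of 0.13 (adjusted p = 0.729). The other 8 members changed by −0.17 (Eif2b4) to −0.020 (Eif5), and the median of all 10 was −0.066 against −0.0035 for all genes. Both drug mice were below both vehicle mice for 5 members (Eif2s1, Eif2b1, Eif2b2, Eif2b4 and Eif2b5), where 15.8% of genes were, and above for Eif2a alone, where 23.6% were.

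Footprints of the members showed larger differences. The edgeR test, Benjamini-Hochberg adjusted, found that 1 member was lower, where 0.982% of 10695 genes were, and none was higher, where 0.0468% were. At an unadjusted p under 0.05 there were 4 members, Eif2s1, Eif2s2, Eif2a and Eif5b, all lower, where 12.8% of genes fell under it in either direction.

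The plot of counts by mouse gives the RNA-Seq and footprint values behind these tests.

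**Figure D2:**
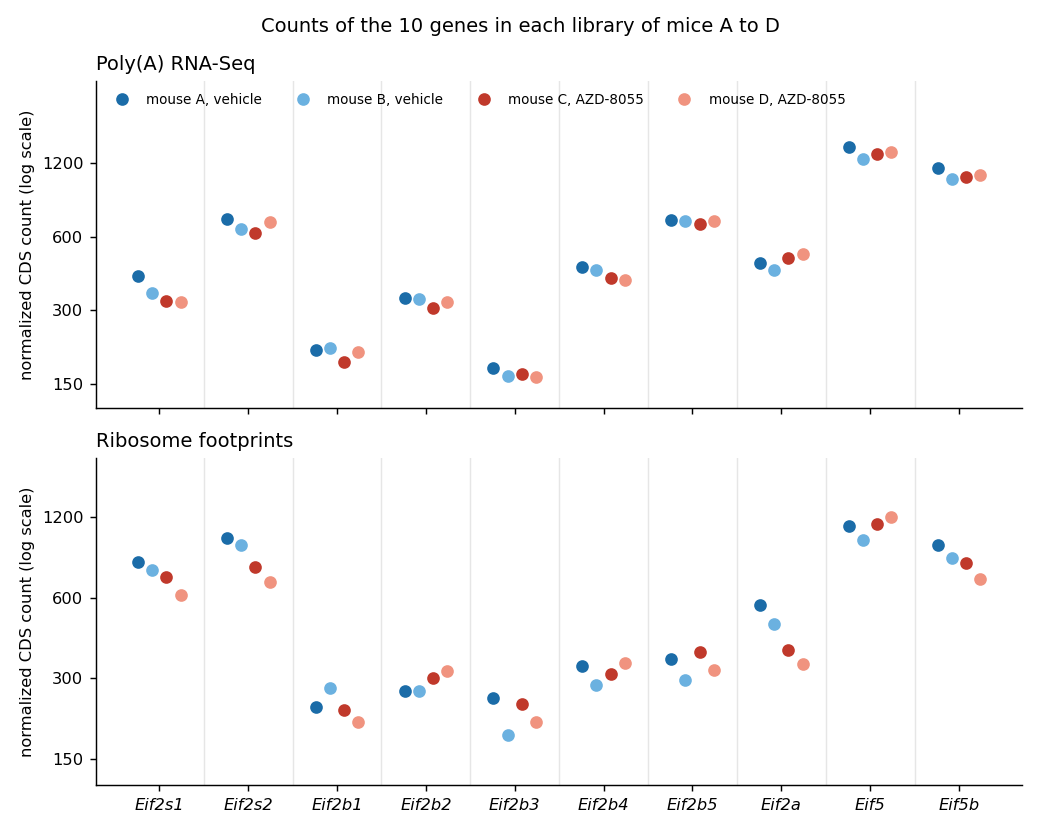
Normalized CDS counts (log scale) of the 10 genes in the RNA-Seq (top) and footprint (bottom) libraries, with 1 point per mouse. In the footprint panel both AZD-8055 mice (red) lie below both vehicle mice (blue) for Eif2s1, Eif2s2, Eif2b1, Eif2a and Eif5b and above them for Eif2b2 and Eif5, while in the RNA-Seq panel the 4 points of a gene lie close together.

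Eif2s2 gave 1004 and 947 normalized footprints in mice A and B and 784 and 688 in mice C and D. The drug mice did not overlap the vehicle mice, and the change of −0.41 (SE 0.082, 1.33-fold lower) passed narrowly (edgeR, adjusted p = 0.0496). The call was lost with DESeq2 size factors in edgeR (0.0536), with DESeq2 (0.0766), with a lower count threshold (0.0850) and without either vehicle mouse (0.483 without A and 0.492 without B, as adjusted p), while the change kept between −0.48 and −0.34 throughout.

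Eif2a gave 563 and 481 footprints against 385 and 339 in the drug mice, again without overlap. Its change of −0.54 (SE 0.11, 1.46-fold lower) was larger than that of Eif2s2 but missed the threshold (edgeR, adjusted p = 0.0516), and so passed or failed with small changes of the processing. With library totals in place of scaling factors the adjusted p was 0.0466. Eif2s1 footprints were 821 and 766 against 716 and 616, a change of −0.26, and Eif5b footprints were 946 and 846 against 808 and 706, a change of −0.25. Neither passed (edgeR, adjusted p = 0.278 for both). Without the footprint library of mouse C, which held the fewest counts, the 4 members Eif2s1, Eif2s2, Eif2a and Eif5b all passed, with adjusted p of 0.0267, 0.000145, 0.000312 and 0.0287 by edgeR, and over all genes 482 rather than 105 were lower. That fit rests on 1 drug mouse, D, which is assumed to vary as the vehicle mice do.

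The eIF2B subunits did not share a direction in footprints. Eif2b1 had 235 and 277 footprints in vehicle mice and 229 and 207 in drug mice, and Eif2b2 had 269 and 270.4 against 301 and 321. Their changes of −0.22 and 0.22 did not pass, and those of Eif2b3, Eif2b4 and Eif2b5 lay between 0.0093 and 0.085 with the mice overlapping. Eif5 had 1116 and 985 against 1132 and 1206, a change of 0.16 (edgeR, adjusted p = 0.456). Over all members both drug mice were below both vehicle mice in 5, where 20.0% of genes were, and above in 2, where 20.2% were.

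The change of TE combines both kinds of library and asks whether the footprints of a gene changed by another factor than its RNA. Of the 10 members Eif2a alone had a changed TE, lower in the AZD-8055 mice, where 0.912% of the 10531 genes tested were lower and 0.0950% higher by the interaction term of edgeR's fit, Benjamini-Hochberg adjusted. Its log2 TE was 0.27 and 0.14 in vehicle mice A and B and −0.36 and −0.60 in drug mice C and D. The group means were 0.20 ± 0.090 and −0.48 ± 0.17 (SD, n = 2 each), above 58.9% of genes in the vehicle mice and above 28.5% in the drug mice. The drug mice did not overlap the vehicle mice, and the fitted change was −0.68 (SE 0.13, 95% interval −0.97 to −0.40, 1.61-fold lower, adjusted p = 0.0143). The footprints gave −0.54 of the difference and the RNA-Seq counts 0.13 with the opposite sign, each from its own fit.

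Eif2a kept this call under other scalings, DESeq2, other count thresholds and the mouse as a block (adjusted p 0.000593 to 0.0195) and without mouse C (0.0350). It lost the call without mouse A (−0.63, adjusted p = 0.304), B (−0.72, 0.109) or D (−0.58, 0.362). The change stayed between −0.78 and −0.58. No member reached the study's limit of a 2-fold change, which 0.323% of genes passed on the lower side. Of the 96 genes with lower TE 73 were ribosomal proteins, 4 eIF3 subunits and 2 eIF4 factors, and Eif2a ranked 73rd of them by size, its −0.68 being smaller than their median of −0.86.

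**Figure D3:**
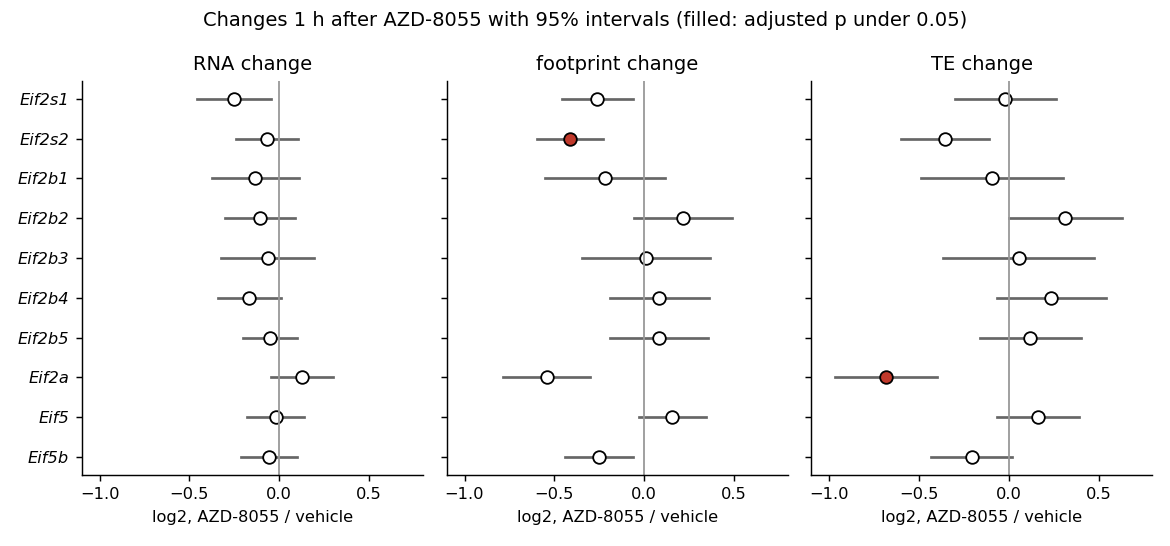
Fitted log2 change (AZD-8055 over vehicle) of RNA-Seq, footprints and TE for each gene with its 95% interval, from edgeR. Filled points have an adjusted p under 0.05, which were Eif2s2 in footprints (−0.41) and Eif2a in TE (−0.68).

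The TE changes of the other 9 members did not pass. Eif2s2 came next with log2 TEs of 0.50 and 0.55 against 0.34 and −0.0059, a change of −0.36 (95% interval −0.60 to −0.11, edgeR adjusted p = 0.364). Eif5b followed with −0.27 and −0.29 against −0.38 and −0.60, a change of −0.21 (95% interval −0.43 to 0.019). In each of these the lower drug mouse was D. Eif2s1, whose footprints and RNA-Seq counts were both somewhat fewer in the drug mice, had a TE change of −0.019 (95% interval −0.30 to 0.26).

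Values for Eif2b2, Eif2b4 and Eif5 were above 0, and none passed. Eif2b2 moved from −0.32 and −0.30 to −0.022 and −0.019, a change of 0.32 (95% interval 0.0015 to 0.63, edgeR adjusted p = 0.680). Eif2b4 moved from −0.44 and −0.64 to −0.39 and −0.23, a change of 0.24, and Eif5 from −0.32 and −0.34 to −0.22 and −0.14, a change of 0.16. Neither Eif2b2 nor Eif2b5, the members with a pyrimidine run near the annotated start shown above, had a lower TE. For Eif2b5 the change was 0.12 (95% interval −0.16 to 0.40). Both drug mice were below both vehicle mice in the TE of 3 members, where 21.2% of genes were, and above in 3, where 16.1% were. At an unadjusted p under 0.05 there were 3 members (Eif2s2, Eif2b2 and Eif2a), where 7.30% of genes fell under it.

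The members' median TE change was 0.018, against −0.0062 for all genes, −0.23 for 12 eIF3 subunits, of which 4 were lower, −0.015 for 11 eIF4 factors, of which 2 were, and −0.88 for the 78 ribosomal proteins. Among the 26 other genes of the pathway none of the 23 tested passed in TE by edgeR, none of 25 in RNA and none of 24 in footprints, with 3, 3 and 4 at an unadjusted p under 0.05, and other tools were not run on this list. No alternative called any of the 10 members higher in TE, RNA or footprints. The TE change was −0.33 for Eif2s3x (edgeR, adjusted p = 0.562) and −0.46 for Eif2s3y (edgeR, adjusted p = 0.839). The TE, RNA and footprint comparisons share their libraries and are not independent of each other.

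Polysomes of the Camk2a-expressing cells were compared with homogenate in mice E and F, to ask which members are represented there beyond their level in the tissue. The IP holds mRNA bound to ribosomes and the input holds RNA of the homogenate. Expression in these cells and association with ribosomes can therefore not be told apart in the enrichment. In the same kind of test (edgeR, Benjamini-Hochberg adjusted) 8 of the 10 members were higher in the IP, where 36.5% of 12211 genes were, and none was lower, where 39.0% were. Of the 8, 4 passed a 2-fold limit (Eif2b3, Eif2b4, Eif2b5 and Eif5b), where 20.4% of genes did. The enrichment of IP over input was also taken per mouse from size factors and averaged over mice E and F. Its median on the log2 scale was 1.02 over the members and 0.066 over all genes. Both IPs were above both inputs for 9 members, where 45.6% of genes were, and below for none, where 41.7% were.

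The gate of the IP was visible in the markers. Summed counts of 6 astrocyte markers were 12798 to 13653 in the inputs and 1206 to 1419 in the IPs, and those of 6 excitatory neuron markers 45487 to 48326 and 96115 to 100813. All 6 astrocyte, all 6 oligodendrocyte and all 6 inhibitory neuron markers were lower in the IP, but of the 6 excitatory markers 4 were higher and 2 lower.

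The members most enriched were 3 subunits of eIF2B. Eif2b3 had 146 and 209 normalized counts in the inputs of mice E and F and 475 and 609 in their IPs, a log2 enrichment of 1.70 and 1.54 (edgeR, 1.47, SE 0.20, adjusted p = 0.000185). Eif2b4 had 549.9 and 505 against 1517 and 1714, an enrichment of 1.46 and 1.76 (edgeR, 1.48, SE 0.13, adjusted p = 1.13e-05). Eif2b5, the catalytic subunit with low TE in the unsorted tissue of mice A and B, had 886 and 977 against 2482 and 2839.7. Its enrichment was 1.49 and 1.54 (edgeR, 1.38, SE 0.12, adjusted p = 1.43e-05). In enrichment per mouse Eif2b4 overlapped with both of the others. Eif2b3 lay above Eif2b5 in both mice, but in mouse F only by 1.543 against 1.539, less than either SE. With exon counts Eif2b3 was the lower of these 2 in mouse F, at 0.99 against 1.14, so the 3 are not ranked.

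**Figure D4:**
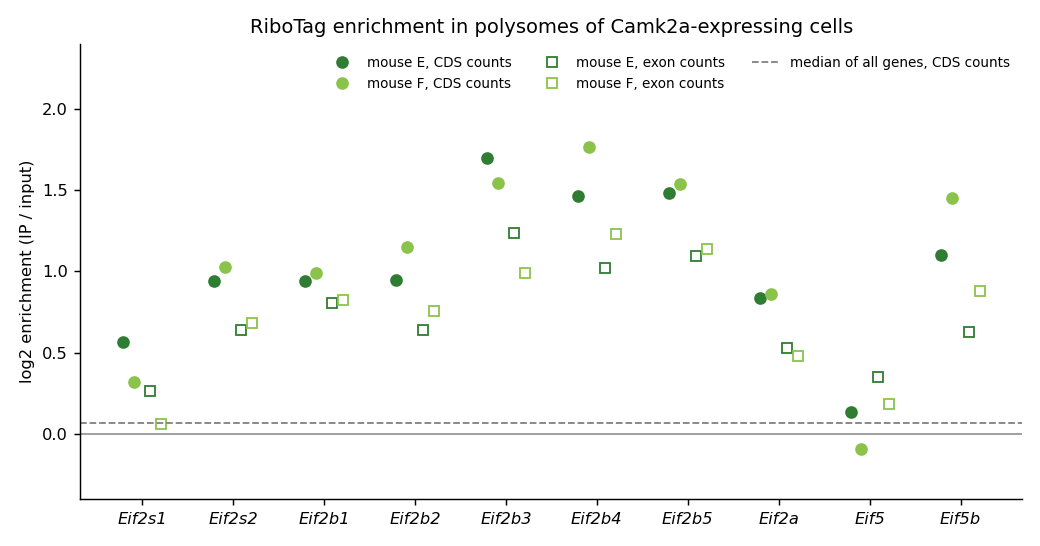
Log2 enrichment in the RiboTag IP over input for each gene in mice E (dark) and F (light), from CDS counts (filled circles) and exon counts (open squares). The dashed line is the median of all genes from CDS counts (0.066). With CDS counts Eif2b3, Eif2b4 and Eif2b5 lie highest and Eif5 lies at the median, and exon counts give lower values for every gene but Eif5.

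The other subunits of eIF2B were enriched to a smaller extent. Eif2b1 had 273 and 268 counts in the inputs and 523 and 532 in the IPs (edgeR, log2 0.83, adjusted p = 0.000508), and Eif2b2 had 410.2 and 373 against 792 and 825 (edgeR, log2 0.91, adjusted p = 0.000201). All 5 subunits of the complex were thus higher in the IP, with inputs and IPs that did not overlap.

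The subunits of eIF2 were less alike. Eif2s2 had 741 and 821 counts in the inputs and 1423 and 1677 in the IPs, and passed (edgeR, log2 0.85, SE 0.13, adjusted p = 0.000308). Eif2s1 had 447 and 539 against 661 and 672, an enrichment of 0.56 and 0.32, and did not pass (edgeR, log2 0.30, SE 0.14, adjusted p = 0.075). With the mouse as a block, which the shared letters justify, it did (log2 0.31, adjusted p = 0.0222), whereas with exon counts its change was 0.042 (adjusted p = 0.749). Eif2s3x, of the gamma subunit, was lower in the IP (edgeR, log2 −0.67, adjusted p = 0.00128). Its copy Eif2s3y held 0 to 2 counts in each library of mice E and F. In each RNA-Seq library of mice A to D it held 507 to 800, which sets the 2 sets of animals apart. The TE and drug results come from mice A to D and the IP results from E and F. The part of this difference in them was not tested.

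Eif2a had 556 and 657 counts in the inputs and 992 and 1195 in the IPs (edgeR, log2 0.72, SE 0.14, adjusted p = 0.0015). Eif5b had 1361 and 1639 against 2919.7 and 4488, with an enrichment of 1.10 in mouse E and 1.45 in mouse F (edgeR, log2 1.17, SE 0.19, adjusted p = 0.00047). Eif5 was the member without enrichment, with 1956 and 2413 counts in the inputs and 2145 and 2265 in the IPs, which overlapped (edgeR, log2 −0.12, SE 0.13, adjusted p = 0.421). Counted over exons, which include the untranslated regions, Eif5 had enrichments of 0.35 and 0.18. Its exon counts exceeded its CDS counts by 1.14 in log2 in the inputs and 1.86 in the IPs, a shift of 0.72 between them against a median of 0.31 for all genes and 0.13 for the members.

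The scale of these enrichments depends on the normalization and on the genes kept. With library totals the median of all genes moved from −0.067 to −0.51 and the share of calls that were higher from 48.3% to 32.5%. The members then had a median enrichment of 0.45 and Eif2s1 a log2 change of −0.14, Eif2a no longer passed (0.27, adjusted p = 0.103) and Eif5 passed as lower (−0.56, adjusted p = 0.00405). With exon counts the members' median was 0.72. When the count minimum was asked of IPs and inputs separately, an alternative chosen after seeing the data that left 10470 genes, 8 members were still higher but Eif2s1 was at 0.10 and Eif5 passed narrowly as lower (−0.32, adjusted p = 0.0498). Eif2s2, Eif5b and all 5 eIF2B subunits passed as higher under each alternative.

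Other genes of the translation machinery were also higher in the IP. All 78 ribosomal protein genes tested were higher in the IP, with a median log2 change of 1.35, as were 11 of 12 eIF3 subunits, with a median of 1.20, and 6 of 11 eIF4 factors, with a median of 0.37. Of the 25 other genes of the pathway that were tested 15 were higher and 8 lower, with a median of 0.72. The smallest adjusted p among them were those of Eif1b (edgeR, log2 1.66, adjusted p = 4.35e-06), Eif6, which keeps the large subunit from joining early (edgeR, log2 1.71, adjusted p = 5.16e-06), and Eif1, which guards start codon choice (edgeR, log2 1.42, adjusted p = 5.7e-06). The members' median in the same fit was 0.88.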

How the data were processed

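Poly(A) RNA-Seq and ligation-free ribosome profiling were measured in homogenate of mice A to D, and RNA-Seq in input and RiboTag IP of mice E and F. The authors trimmed footprint reads, removed poly(A) and rRNA (Bowtie2), aligned the rest with TopHat2, counted reads with HTSeq in its strict intersection mode and deposited these raw counts per gene, for 12 libraries on CDS and, for the 8 that are RNA-Seq, also on exons. The submitters' processing notes name mm10. Reads carry no molecular identifiers, so counts also hold PCR duplicates.

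Differences were tested with edgeR 4.0.16 in R 4.3.3 (TMM, quasi-likelihood F-test, two-sided, Benjamini-Hochberg over all genes tested, threshold 0.05), keeping genes that averaged 37 or more counts over the libraries compared, and for TE over each kind of library. RNA, footprint and IP comparisons used their 4 libraries, and TE and its change used 1 fit of 8 libraries with library kind, treatment and their interaction, in place of RiboDiff, which was not available. TE and enrichment per mouse used DESeq2 1.42.0 size factors, and TE percentiles used genes with at least 75 counts of each kind over a pair of mice. SE is the coefficient over the square root of F. The scripts were tested on simulated counts. The changes planted there were larger than those of the members under AZD-8055, so power for the latter was not measured.

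Libraries with 1 letter come from 1 animal. Across genes, the differences between mice A and B correlated between RNA-Seq and footprints at 0.255, those between C and D at 0.239, and those between E and F, over input and IP, at 0.462. The alternatives were other scalings, DESeq2, a threshold of 10 counts or none, exon counts, the mouse as a block and leaving out each mouse or library. All 10 members are named, with pathway genes from a list, of which those with the 3 smallest adjusted p are named. The members and lists were chosen with earlier results of these data known. Symbols turned into dates (27 entries, 0.350% of CDS counts) stayed in as they are. Gene positions and start sites come from RefSeq tables (GRCm38.p6), where 9 of the 10 members have a start site and Eif2b3 has none. Footprints per codon were left out, since no protein table was used here. Figures were drawn with matplotlib 3.10.9.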

Additional observations from a re-analysis of the deposited data

Results flagged for a closer look

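The TE change of Eif2a was the only one among the members to pass the interaction of library kind and treatment in edgeR's quasi-likelihood test. It was −0.68 on the log2 scale (edgeR, adjusted p = 0.0143). Leaving out mouse A, B or D lost the call, with changes of −0.63, −0.72 and −0.58. The change between AZD-8055 and vehicle mice was −0.54 in footprints and 0.13 in RNA-Seq. Groups of 2 mice were too small to look for single samples that stand apart from their group.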

How the results depend on the processing

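Every gene-level direction came from 2 mice a group. Under library totals the Eif2s1 TE change was 0.010 and its IP change −0.14. Without a count filter the Eif2b3 TE change was −0.0046 and its footprint change −0.029, which was −0.0032 with a threshold of 10 counts. With exon counts the Eif5 RNA change was 0.025 and its IP change 0.14. None of these values passed a test, and the cause was not tested. Leaving out single mice or libraries gave TE changes of −0.12 to 0.070 for Eif2s1, −0.24 to 0.029 for Eif2b1 and −0.054 to 0.24 for Eif2b3, RNA changes of −0.088 to 0.056 for Eif5, −0.12 to 0.011 for Eif5b and −0.16 to 0.015 for Eif2s2, and footprint changes of −0.14 to 0.23 for Eif2b3, −0.0052 to 0.19 for Eif2b5 and −0.016 to 0.18 for Eif2b4. The count of members with lower TE was 0 to 1, and of members with fewer footprints 0 to 4. That last count, 1 in the report, was 0 with DESeq2 size factors, with DESeq2 and with a threshold of 10 counts, and 2 with library totals and with no filter. Eif5 was lower in the IP (1 in place of 0) with library totals and with the count minimum asked of IPs and inputs separately, an alternative chosen after seeing the data. With library totals the median log2 TE of members was −0.14 and their median enrichment 0.45, and with exon counts that enrichment was 0.72. Over all genes, those with higher TE after AZD-8055 numbered 16 with library totals, 20 with DESeq2, 23 without a filter and 34 with the mouse as a replicate block, in place of 10, and 3 to 17 without single mice, where lower ones numbered 55 to 78. Genes with less RNA numbered 20 with library totals, 21 with DESeq2 and 48 without a filter in place of 11, and 10 to 29 without single libraries, and those with more RNA 30 without a filter in place of 7, and 3 to 13. Genes with more footprints numbered 14 with library totals, 13 with DESeq2, 3 with a threshold of 10 counts and 60 without a filter in place of 5, and 2 to 355 without single libraries, and those with fewer 204 without a filter in place of 105, and 61 to 482. The ends 355 and 482 are without the footprints of mouse C. Genes with a higher baseline TE numbered 5685 without a filter in place of 3766. The block changed no call of a member other than that of Eif2s1 in the IP. The alternative scaling of footprints per codon was not run. The 95% intervals of the members' TE changes, which hold the spread between 2 mice a group as well as counting error, reached 0.23 to 0.42 to each side, and changes outside them (Eif2s2, Eif2b2) still missed the threshold after adjustment over all genes.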
